A study of Mus musculus with 15 samples.

Results

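The replication-dependent histone genes encode the H1, H2A, H2B, H3 and H4 proteins that package new DNA, and they were read here on mouse arrays of RAW264.7 cells, an established macrophage-like line. They were taken by name, as every noncontrol probe whose gene symbol begins with Hist1h to Hist4h or has the newer H1f, H2ac, H2bc, H3c or H4c form, and no probe of the array carried a newer form. This gave 57 of the 36870 genes named on the array, and 46 of them were among the 19506 genes bright enough to be tested. The 57 genes comprise 6 of class H1, 18 of H2A, 14 of H2B, 9 of H3 and 10 of H4. Probes of 43 genes lie on chromosome 13, those of 10 on chromosome 3, those of 3 on chromosome 11 and that of 1 on chromosome 6.

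The 15 one-colour arrays fall into 5 groups of 3 replicates, labelled DEX, FF, VSG158, VSG159 and EtOH/DMSO, the last being the solvents and called vehicle here. DEX is dexamethasone, a synthetic glucocorticoid, and FF is fluticasone furoate, which differs from it in carrying a further fluorine on the steroid ring system, and a furoate ester and a fluoromethyl thioester where dexamethasone has a hydroxyl group and a hydroxyketone side chain. VSG158 and VSG159 are known here by code name only. Cells had 100 nM of a steroid for 1 h and then lipopolysaccharide (LPS), a bacterial outer-membrane component, at 1 ug/ml for 16 h. The protocol is the same text for every sample, so vehicle cells are taken as LPS-treated too, and the labels do not say which compound came in which solvent. Nothing says that replicates were separate cultures, and the series' own text speaks of duplicates, so p-values measure only the spread between these samples, which may be technical.

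In dividing cells these histone mRNAs are made in S phase, from promoters served by NPAT and CASP8AP2. They carry no poly(A) tail: the transcript ends in a short stem-loop bound by SLBP, and the U7 ribonucleoprotein, with LSM10, LSM11 and ZFP473, directs the cut just past it. Some of these genes also give longer, polyadenylated mRNAs that run past the stem-loop, a form known from differentiated and non-dividing cells. The labelling kit named in the protocol primes with oligo-dT, which samples RNA without a poly(A) tail poorly, so levels here are of what that labelling took up. Macrophage markers were above background on 15 of 15 arrays for 8 of 8 genes, and Col1a1, a fibroblast marker, on 0. The summed linear level of the macrophage markers ran from 780 to 934 with DEX, 802 to 867 with FF, 775 to 864 with VSG158, 868 to 936 with VSG159 and 763 to 864 with vehicle. Among other markers of cell types not expected in the line, Epcam was above background on 1 array, Ncam1 on 2, Pecam1 on 3 and Cd3e on all 15. The 2 of these bright enough to be tested, Cd3e and Pecam1, summed to 1.71 to 3.52 with DEX, 0.93 to 1.66 with FF, 0.91 to 3.99 with VSG158, 0.79 to 3.34 with VSG159 and 0.72 to 1.15 with vehicle, so all DEX arrays lay above those of vehicle. Neither gene was called with any compound, and their part in the histone values was not tested.

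The arrays were hybridised on 2 slides. All vehicle and VSG158 arrays and VSG159 replicates 1 and 2 were on one slide, and all DEX and FF arrays and VSG159 replicate 3 on the other. No slide thus carried vehicle together with DEX or FF, and a fit with slide as a block links them through VSG159 alone. Position on the slide runs with group as well. With slide and position both in the fit, 38 of all genes were called with DEX and 1070 with FF, and the part of slide position in the results could not be told apart from group there. Arrays of a group correlated at 0.972 to 0.991 over all noncontrol probes, and no spot was saturated.

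Each gene is read by a 60-base probe, and the probes lie at different places along the histone mRNA, so the probe sequences of the genes on which the results turn are shown first (sequences from the array files, 5′ to 3′, mm9 coordinates of the whole probe). The first 3 lie wholly in coding sequence and are shown whole.
Hist1h1b: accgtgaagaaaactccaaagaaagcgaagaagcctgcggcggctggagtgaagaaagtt
Hist1h2bm: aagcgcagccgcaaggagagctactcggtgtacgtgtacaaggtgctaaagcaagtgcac
Hist1h3d: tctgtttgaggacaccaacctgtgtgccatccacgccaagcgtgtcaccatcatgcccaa
The probe of Hist1h1b, a linker histone (H1f5 in RefSeq), lies at chr13:21871923-21871982 on the minus strand. That of Hist1h2bm (H2bc14) lies at chr13:21814057-21814116 and that of Hist1h3d (H3c4) at chr13:23667979-23668038, both on the plus strand. The coding regions of these families are near copies: the array's own accession column matches the Hist1h2bm probe and the Hist1h3d probe to 4 RefSeq genes each, 15 of the 46 tested probes match several, and the Hist1h2af and Hist1h2ak probes share 55 of 60 bases. A value of such a probe speaks for the group of copies.

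Other probes reach the stem-loop or lie past it, and 30 bases of each are shown, with the stem-loop motif in capitals where the 30 bases hold it, because the values are set out by side further on.
Hist1h2ab: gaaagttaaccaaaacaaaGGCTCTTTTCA
Hist2h2bb, first probe: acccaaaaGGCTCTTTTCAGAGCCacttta
Hist2h2aa1: aaaaGGCTCTTTTCAGAGCCacccactgaa
Hist2h2bb, second probe: ggggatcttctcctagtctacgagttgtca
Hist1h1c: tacacttgctttgccttattttgatcagca
Hist1h4i: gggaatcccaatagagccttctgcttggga
The Hist1h2ab probe (chr13:23843392-23843451) ends within the stem-loop, before the usual end of the mRNA. The first Hist2h2bb probe (chr3:96074056-96074115) ends a few bases after the stem. The Hist2h2aa1 probe (chr3:96049949-96050005) begins with the stem-loop and runs on beyond it. The second Hist2h2bb probe (chr3:96082754-96082813), the Hist1h1c probe (chr13:23832018-23832077) and the Hist1h4i probe (chr13:22132591-22132650) lie past the stem-loop altogether. In the array's accession column 20 of the 74 member probes match no RefSeq transcript. Among them are the Hist2h2aa1, Hist1h1c and Hist1h4i probes just named, the second Hist2h2bb probe and the Hist3h2a probe past the stem-loop. Their gene names are the array's own. The whole motif TTNTNAGNGCC on the sense strand was found in 9 of 74 member probes (12.2%), against 47 of all 56605 noncontrol probes (0.083%). The motif GGCTNTTTT cut by the probe's end was found in 5 of the 74 (6.76%), against 27 of all (0.0477%). By the motif or by the length of the RefSeq gene, 34 of the 46 tested genes were read before or at the stem-loop and 12 past it. This split was drawn after the values had been seen and is used only to describe them.

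The promoters of 50 of the 57 genes were in the RefSeq table, and 3 of them are shown. They belong to 2 genes called higher and 1 called lower, on the probe used, with all 4 compounds. Shown are the 250 bases before the gene's start (GRCm38.p6), 5′ to 3′ along the gene. The motif CCAAT, the TATA box TATAAA and the octamer ATTTGCAT on either strand are in capitals.
Hist1h1b: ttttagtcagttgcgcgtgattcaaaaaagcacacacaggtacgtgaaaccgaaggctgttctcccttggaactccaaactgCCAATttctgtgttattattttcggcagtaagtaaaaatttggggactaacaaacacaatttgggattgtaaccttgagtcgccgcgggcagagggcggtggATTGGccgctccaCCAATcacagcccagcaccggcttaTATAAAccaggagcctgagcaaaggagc
Hist1h2ab: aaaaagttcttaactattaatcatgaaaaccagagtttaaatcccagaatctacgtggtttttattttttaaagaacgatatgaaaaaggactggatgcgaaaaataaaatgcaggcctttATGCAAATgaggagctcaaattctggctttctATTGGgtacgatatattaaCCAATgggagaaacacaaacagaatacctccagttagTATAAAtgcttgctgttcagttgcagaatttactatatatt
Hist2h2aa1: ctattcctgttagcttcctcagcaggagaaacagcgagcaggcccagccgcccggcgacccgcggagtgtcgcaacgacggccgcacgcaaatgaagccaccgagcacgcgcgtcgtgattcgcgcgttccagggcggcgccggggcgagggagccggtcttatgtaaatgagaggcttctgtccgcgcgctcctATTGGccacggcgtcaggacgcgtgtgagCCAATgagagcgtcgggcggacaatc
They lie at chr13:21780626-21780875 (minus strand), chr13:23750838-23751087 (plus) and chr3:96245247-96245496 (plus). CCAAT occurred in 84% of the 50 promoters, against 34.5% of all 27025 promoters, and TATAAA in 48%, against 13%. ATTTGCAT, the octamer known from H2B promoters, occurred in 24%, against 1.61% of all, with 45.5% in H2B, 41.2% in H2A and none in H1, H3 or H4. TTTCCCGC, an E2F-type motif, occurred in 2%, against 0.929%. All 4 motifs were searched on both strands, none of them contains another, and a match is not a binding site. H2A and H2B genes often start back to back: 6 pairs do so here with 164 to 281 bases between starts. The 250-base windows of such a pair overlap, so 1 motif can count in both classes. The octamer shared by Hist1h2aa and Hist1h2ba does so, and so does that shared by Hist1h2ae and Hist1h2bg. The octamer shares rest on 5 of 11 H2B and 7 of 17 H2A promoters and are not independent.

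Against vehicle, the histone genes did not move as one class. Of the 15 tested H2A genes, 11 were higher with FF and 11 with VSG158, while most H2B and H3 genes were lower with all 4 compounds. The linker histone Hist1h1b was 7.93-fold higher with FF, and the probe of Hist2h2aa1, an H2A gene read past the stem-loop, was 10.2-fold lower. Levels are log2 processed signals relative to the 75th percentile of their array, so 0 is the signal of that percentile. Differences are on the same log2 scale, 4 given in a row follow the order DEX, FF, VSG158 and VSG159, and a gene was called when limma's adjusted p over all tested genes was under 0.05. Of the 46 tested genes, 6 were higher and 17 lower with DEX, against 23.2% and 23.1% of all tested genes. With FF 19 were higher and 14 lower (20.9% and 21.4% of all genes). With VSG158 17 were higher and 15 lower (19.7% and 24.5% of all), and with VSG159 14 were higher and 15 lower (19.1% and 25.0% of all). In either direction that makes 23, 33, 32 and 29 genes, against 46.3%, 42.2%, 44.2% and 44.1% of all tested genes. The share of histone genes higher with DEX was thus below that of all genes, and the other shares were above it. The median difference of the histone genes was -0.21, 0.31, 0.26 and 0.19, beside 0.03, -0.05, -0.06 and -0.06 over all tested genes. These medians moved with the processing: with slide as a fixed block the DEX median was -0.43 and the FF median 0.19, and with slide and position in the fit the DEX median was -0.09 and the VSG159 median 0.34. With the mean of all tested probes of a gene the VSG158 median was 0.12, and without DEX replicate 2 the DEX median was -0.14. In bulk samples such as these, fewer cells making a transcript and less of it per cell cannot be told apart.

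With slide as a block, 3 genes were higher and 17 lower with DEX, 8 and 15 with FF, 20 and 15 with VSG158, and 12 and 17 with VSG159. On the slide that holds vehicle, VSG158 and VSG159 replicates 1 and 2, taken alone, 15 were higher and 15 lower with VSG158, and 11 and 17 with VSG159. Of these counts, the number of genes higher with FF moved most. With slide and position both in the fit, 0 genes were higher and 2 lower with DEX. In that fit 2 were higher with FF, 11 with VSG158 and 5 with VSG159. Of the main calls in either direction, 2 of 23, 12 of 33, 24 of 32 and 15 of 29 were still made there with the same sign. With each array scaled to its median, 3 were higher with DEX, 12 with FF and 9 with VSG158. Calls over all tested genes moved as well. In either direction the main fit called 9037, 8238, 8624 and 8595 of them. With slide as a block these were 8248, 7359, 9261 and 10163, and with slide and position 38, 1070, 5809 and 2827. With median scaling they were 4926, 4716, 4994 and 4753, and on the vehicle slide alone 7959 with VSG158 and 8736 with VSG159. The comparisons share the vehicle arrays, so patterns over the 4 are descriptions: 6 genes were higher with all 4 compounds, 14 were lower with all 4, 7 were higher with FF, VSG158 and VSG159 but not called with DEX, and 7 were called with none.

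**Figure D1:**
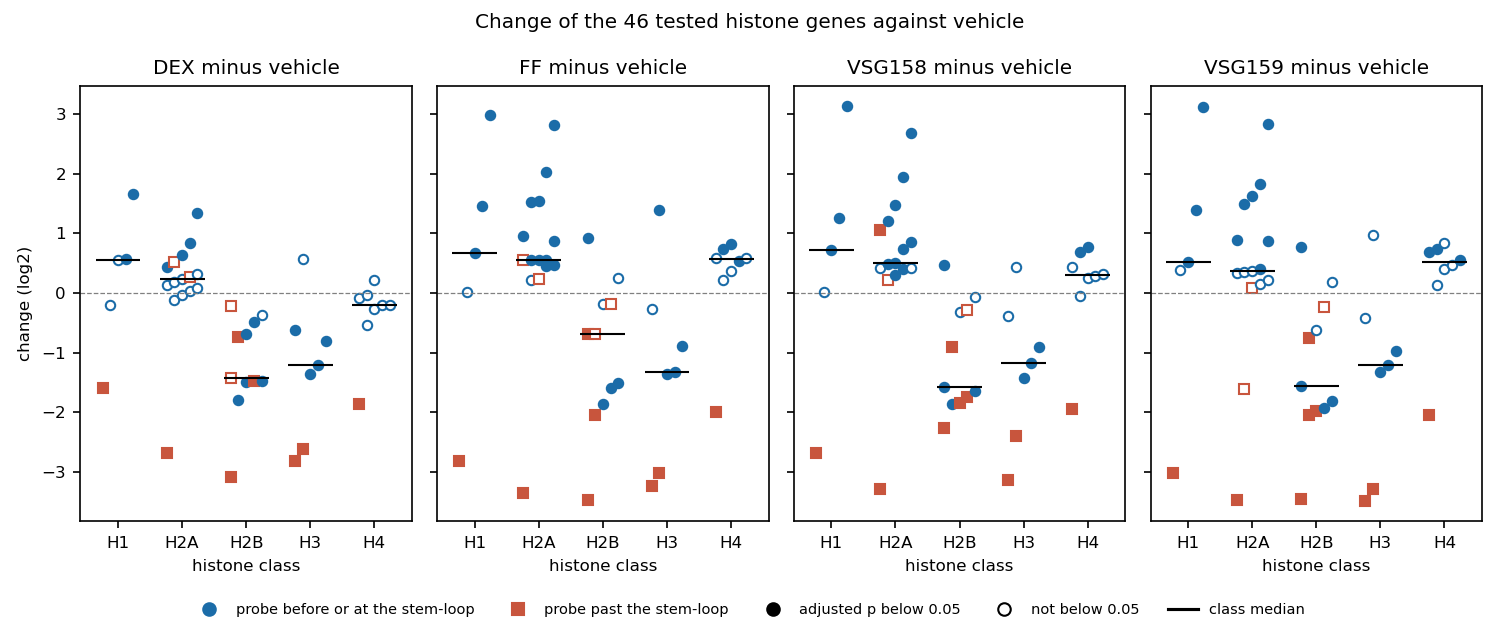
Difference from vehicle (log2) of each of the 46 tested histone genes, with 1 panel for each compound, by histone class (x axis). Points are single genes, filled where the adjusted p was below 0.05, and lines are class medians: the H2B and H3 medians are at -0.69 or below in every panel, and the H1 and H2A medians at 0.24 or above.

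The H1 linker histones, which sit on the DNA between nucleosomes, moved in both directions. Hist1h1b stood at -1.18, -1.18 and -1.45 with DEX, -0.06, 0.32 and -0.11 with FF, 0.31, 0.35 and -0.06 with VSG158, 0.25, 0.14 and 0.17 with VSG159, and -3.08, -2.81 and -2.90 with vehicle. Vehicle was lowest throughout, DEX lay between it and the other 3 compounds, and neither of those gaps had any overlap. It was 3.17-fold, 7.93-fold, 8.79-fold and 8.71-fold higher (log2 1.66, 2.99, 3.14 and 3.12, SE 0.14 each, limma adjusted p = 2.7e-06, 1.8e-08, 1.5e-08 and 1.4e-08). With slide as a block these differences were 1.69, 3.01, 3.14 and 3.13.

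Hist1h1c (H1f2 in RefSeq), read past the stem-loop, moved the other way. It stood at 1.41, 1.29 and 1.28 with DEX, -0.04, 0.18 and 0.14 with FF, 0.21, 0.59 and -0.10 with VSG158, 0.01, -0.49 and 0.15 with VSG159, and 2.68, 2.90 and 3.16 with vehicle. DEX again lay between vehicle and the other 3 compounds without overlap. The gene fell, with differences of -1.59, -2.82, -2.68 and -3.02 (SE 0.20 each, limma adjusted p = 4.7e-05, 3.3e-07, 5.3e-07 and 2.0e-07).

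Among the other H1 genes, Hist1h1d stood at -3.44, -3.48 and -3.63 with DEX, -2.81, -2.26 and -2.73 with FF, -2.67, -2.52 and -3.26 with VSG158, -2.55, -3.09 and -2.39 with VSG159, and -4.20, -3.77 and -4.21 with vehicle, where 2 of 3 arrays were well above background. All vehicle arrays lay below the rest. It differed by 0.54 with DEX (adjusted p = 0.076) and was higher with FF (1.46), VSG158 (1.25) and VSG159 (1.39). The FF difference of Hist1h1d with slide as a block was 1.04 (adjusted p = 0.067). Hist1h1e stood at 2.49, 2.46 and 2.37 with DEX, 2.24, 2.78 and 2.65 with FF, 2.56, 2.84 and 2.40 with VSG158, 2.55, 2.10 and 2.54 with VSG159, and 1.86, 1.84 and 1.93 with vehicle. The compounds overlapped one another above vehicle. Hist1h1e was higher by 0.56, 0.68, 0.72 and 0.52, and with slide as a block it was called with VSG158 alone. Hist1h1a was called with none.

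**Figure D2:**
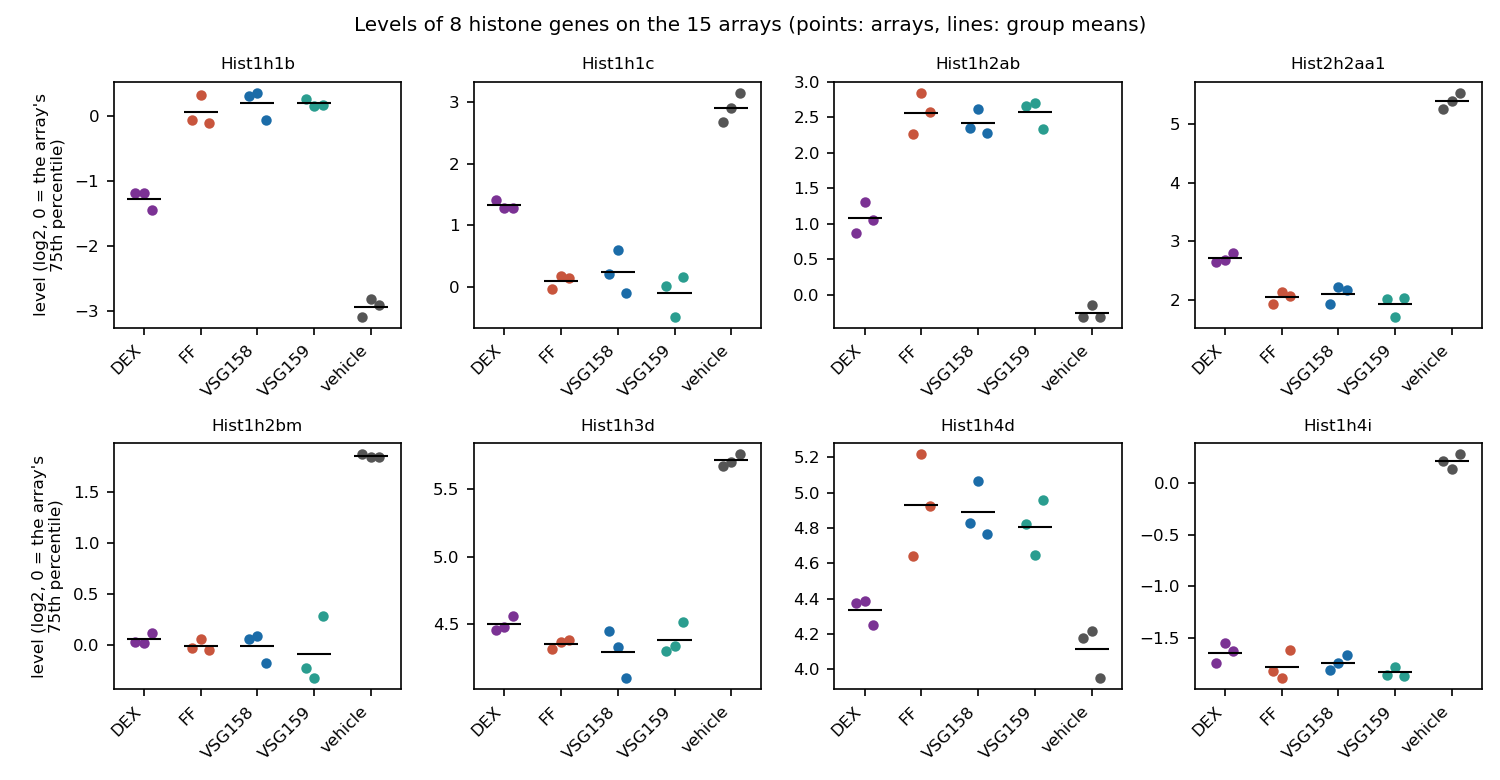
Levels (log2 signal, 0 at the array's 75th percentile) of 8 histone genes on each of the 15 arrays, with 1 panel per gene and its own y axis. Points are single arrays and short lines are group means, with vehicle last: Hist1h1b and Hist1h2ab have their 3 vehicle points below all others, and Hist1h1c, Hist2h2aa1 and Hist1h4i have them above.

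Of the 15 tested H2A genes, 4 were higher and 1 lower with DEX, 11 and 1 with FF, 11 and 1 with VSG158, and 7 and 1 with VSG159, with class medians of 0.24, 0.56, 0.51 and 0.36. Beside these counts and those of the classes below stand the shares of all tested genes. They were 23.2%, 20.9%, 19.7% and 19.1% higher and 23.1%, 21.4%, 24.5% and 25.0% lower. Hist1h2ab, whose probe ends at the stem-loop, stood at 0.87, 1.31 and 1.06 with DEX, 2.27, 2.85 and 2.58 with FF, 2.35, 2.62 and 2.28 with VSG158, 2.67, 2.71 and 2.34 with VSG159, and -0.31, -0.15 and -0.31 with vehicle. The order was the same as in Hist1h1b: vehicle lowest, DEX in between and the other 3 together on top. It was 2.53-fold, 7.07-fold, 6.37-fold and 7.09-fold higher (log2 1.34, 2.82, 2.67 and 2.83, SE 0.17 each, limma adjusted p = 4.9e-05, 8.3e-08, 1.4e-07 and 9.1e-08).

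Hist1h2ao, whose probe matches 2 RefSeq genes, stood at 4.03, 3.94 and 3.90 with DEX, 4.98, 5.34 and 5.09 with FF, 5.14, 5.32 and 4.69 with VSG158, 4.75, 5.08 and 5.01 with VSG159, and 3.095, 3.05 and 3.20 with vehicle. It showed the same 3 levels without overlap and was higher by 0.84, 2.02, 1.94 and 1.83. Hist1h2ag (0.64, 1.52, 1.47 and 1.49) and Hist3h2a (0.43, 0.86, 0.74 and 0.87) were likewise higher with all 4 compounds. The DEX rises of Hist1h2ao (0.75, adjusted p = 0.055) and Hist3h2a (0.27, adjusted p = 0.26) were not called with slide as a block.

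Hist1h2af, read at the end of its coding sequence, stood at 5.70, 5.66 and 5.47 with DEX, 5.95, 6.18 and 6.00 with FF, 6.07, 6.17 and 5.72 with VSG158, 5.63, 5.82 and 5.93 with VSG159, and 5.52, 5.60 and 5.63 with vehicle. DEX and vehicle overlapped. The differences were 0.02 with DEX (adjusted p = 0.89), 0.46 with FF (0.012), 0.40 with VSG158 (0.022) and 0.21 with VSG159 (0.21). The FF difference with slide as a block was 0.25 (adjusted p = 0.39).

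Hist1h2ai was not well above background with DEX or vehicle and was at least 2.36-fold higher with FF, 1.88-fold with VSG158, where 2 of 3 arrays measured it, and 2.50-fold with VSG159 (limma adjusted p = 0.00019, 0.0011 and 0.00013). Hist2h2aa1 was the H2A gene called lower. It stood at 2.64, 2.68 and 2.79 with DEX, 1.92, 2.13 and 2.07 with FF, 1.93, 2.22 and 2.16 with VSG158, 2.02, 1.71 and 2.03 with VSG159, and 5.25, 5.39 and 5.53 with vehicle. All vehicle arrays lay far above the rest, and all DEX arrays above those of the other 3 compounds. It was 6.44-fold, 10.2-fold, 9.75-fold and 11.1-fold lower (log2 -2.69, -3.35, -3.29 and -3.47, SE 0.12 each, limma adjusted p = 2.2e-08, 2.5e-09, 3.3e-09 and 2.1e-09). Its probe is the one that begins with the stem-loop and runs on past it, so this fall is that of the probe. The coding-sequence probe named Hist2h2aa2 matches the RefSeq genes of both Hist2h2aa1 and Hist2h2aa2 (H2ac18 and H2ac19). That probe was called with VSG158 alone, as higher. Hist1h2al, a pseudogene in RefSeq (H2af-ps2) read past the stem-loop, was called with no compound, and its values on 2 of the VSG159 arrays were missing.

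The H2B genes ran lower. Of 11 tested, 8 were lower and none higher with DEX, 6 lower and 1 higher with FF, 7 and 1 with VSG158, and 7 and 1 with VSG159, with class medians of -1.42, -0.69, -1.57 and -1.57. The gene called higher was Hist2h2bb. Hist1h2bm, read in coding sequence, stood at 0.04, 0.02 and 0.12 with DEX, -0.02, 0.06 and -0.05 with FF, 0.06, 0.09 and -0.17 with VSG158, -0.22, -0.32 and 0.28 with VSG159, and 1.87, 1.84 and 1.84 with vehicle. The 4 compounds lay together and all below vehicle. It fell, with differences of -1.79, -1.85, -1.85 and -1.93 (SE 0.14 each, limma adjusted p = 9.4e-07, 4.7e-07, 5.1e-07 and 3.5e-07).

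Hist1h2ba, the testis H2B gene, stood at -0.89, -0.64 and -0.87 with DEX, -0.97, -0.75 and -0.72 with FF, -0.92, -0.76 and -0.94 with VSG158, -0.998, -0.83 and -0.78 with VSG159, and 0.57, 0.65 and 0.87 with vehicle. It too fell with every compound (-1.50, -1.51, -1.57 and -1.57). Its probe shares 44 of 49 overlapping bases with a Hist1h2bb probe that matches 4 RefSeq genes. The part of such near copies in its values was not tested. Hist1h2bc (H2bc4 in RefSeq), read past the stem-loop, stood at 2.70, 2.75 and 2.75 with DEX, 1.99, 2.29 and 2.20 with FF, 2.26, 2.47 and 2.38 with VSG158, 2.30, 1.91 and 2.28 with VSG159, and 4.24, 4.23 and 4.16 with vehicle. It fell (-1.48, -2.05, -1.84 and -2.05), and DEX lay above the other 3 compounds on every array.

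Hist1h2bq, read past the stem-loop, was not well above background on any compound array, so its fall is given as a bound. The bound is the vehicle mean over the mean of the dim arrays, each taken at the lowest signal it could tell from background or at the probe's signal where that was higher. It was at least 2.12-fold, 2.59-fold, 1.84-fold and 3.04-fold lower (limma adjusted p = 0.0011, 0.00040, 0.0070 and 0.00041). Its back-to-back neighbour Hist1h2ao, whose start lies 168 bases away, is one of the genes that rose. Hist1h2bg was at least 1.07-fold lower with VSG158 and 1.53-fold with VSG159 (adjusted p = 0.046 and 0.027), with 2 of 3 vehicle arrays above background.

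Hist1h2bn stood at 4.54, 4.93 and 4.58 with DEX, 5.50, 4.82 and 5.23 with FF, 4.77, 5.02 and 5.37 with VSG158, 4.80, 4.72 and 4.71 with VSG159, and 4.94, 5.87 and 5.31 with vehicle. The vehicle arrays spread widely, and the lowest of them lay just above the highest DEX array and above all VSG159 arrays. It was called lower with DEX (-0.69, adjusted p = 0.034) and differed by -0.63 with VSG159 (adjusted p = 0.051). The DEX call was lost in the fit with slide as a block (-0.64, adjusted p = 0.27).

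Of the 7 tested H3 genes, 6 were lower with DEX and 5 with each other compound, and Hist1h3i alone was called higher, with FF (1.39, adjusted p = 0.026). The gene lower with DEX and not called with the others was Hist2h3b (-0.62, adjusted p = 0.011, against -0.26, -0.38 and -0.41 with the others). The class medians were -1.21, -1.32, -1.17 and -1.20. Hist1h3d stood at 4.46, 4.48 and 4.56 with DEX, 4.32, 4.37 and 4.38 with FF, 4.45, 4.33 and 4.10 with VSG158, 4.31, 4.34 and 4.52 with VSG159, and 5.68, 5.71 and 5.76 with vehicle. All compound arrays lay below vehicle, and the DEX arrays lay above those of FF and VSG158 and overlapped those of VSG159. The gene fell, with differences of -1.21, -1.36, -1.42 and -1.33 (SE 0.10 each, limma adjusted p = 1.2e-06, 3.4e-07, 2.6e-07 and 4.3e-07).

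Hist2h3c2, read past the stem-loop, stood at -3.87, -3.30 and -3.30 with DEX, -3.47, -4.09 and -3.51 with FF, -3.86, -3.94 and -3.64 with VSG158, -3.98, -4.29 and -3.63 with VSG159, and -0.59, -0.62 and -0.82 with vehicle. Vehicle lay above all other arrays. It fell (-2.81, -3.01, -3.14 and -3.29), and its other probe, also past the stem-loop, differed by -2.64, -3.11, -3.53 and -3.27. Hist1h3c stood at 0.33, 0.69 and 0.34 with DEX, 0.85, 1.02 and 0.87 with FF, 0.79, 0.72 and 0.41 with VSG158, 0.68, 0.76 and 1.06 with VSG159, and 1.77, 1.79 and 1.85 with vehicle. It fell (-1.35, -0.89, -1.17 and -0.97). Hist2h3c1 was not well above background with any compound and was at least 3.40-fold, 4.15-fold, 2.84-fold and 4.88-fold lower (limma adjusted p = 0.00041, 6.9e-05, 0.00068 and 3.7e-05).

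Of the 8 tested H4 genes, none was higher and 1 lower with DEX, 3 higher and 1 lower with FF, 2 and 1 with VSG158, and 3 and 1 with VSG159, with class medians of -0.21, 0.56, 0.30 and 0.51. Hist1h4d (H4c4 in RefSeq) stood at 4.38, 4.39 and 4.25 with DEX, 4.64, 5.22 and 4.93 with FF, 4.83, 5.07 and 4.77 with VSG158, 4.82, 4.65 and 4.96 with VSG159, and 4.18, 4.22 and 3.95 with vehicle. All arrays of all 4 compounds lay above those of vehicle. It differed by 0.22 with DEX (adjusted p = 0.24) and was higher by 0.81, 0.77 and 0.69 with FF, VSG158 and VSG159.

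Hist2h4 stood at 2.23, 2.35 and 2.09 with DEX, 2.80, 3.31 and 2.92 with FF, 3.01, 3.09 and 2.73 with VSG158, 2.86, 2.88 and 3.28 with VSG159, and 2.34, 2.31 and 2.14 with vehicle. DEX overlapped vehicle, with a difference of -0.04 (adjusted p = 0.85), and the other 3 compounds were higher by 0.74, 0.68 and 0.74. With slide as a block the FF differences of Hist1h4d (0.59, adjusted p = 0.098) and Hist2h4 (0.33, adjusted p = 0.33) were not called. The other H4 gene called was Hist1h4k, higher with FF (0.54) and VSG159 (0.55). Hist1h4i (H4c9), read past the stem-loop, stood at -1.74, -1.55 and -1.63 with DEX, -1.82, -1.89 and -1.62 with FF, -1.81, -1.74 and -1.66 with VSG158, -1.86, -1.78 and -1.87 with VSG159, and 0.22, 0.14 and 0.28 with vehicle. It was the H4 gene that fell, with differences of -1.85, -1.99, -1.95 and -2.05 (SE 0.09 each, limma adjusted p = 4.0e-08, 1.2e-08, 1.5e-08 and 1.0e-08).

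The values were then set out by where the probe lies. Of the 34 genes read before or at the stem-loop, 6 were higher and 9 lower with DEX, 19 and 6 with FF, 16 and 6 with VSG158, and 14 and 6 with VSG159, with medians of -0.06, 0.55, 0.41 and 0.40. Of the 12 genes read past it, 8, 8, 9 and 9 were lower, the one gene called higher was Hist1h2ae with VSG158 (1.05, adjusted p = 0.010), and the medians were -1.53, -2.02, -1.90 and -2.05. Over all tested genes, 23.2%, 20.9%, 19.7% and 19.1% were higher and 23.1%, 21.4%, 24.5% and 25.0% lower. Lower calls were not limited to probes past the stem-loop: Hist1h2ba, Hist1h2bb, Hist1h2bm, Hist1h3c, Hist1h3d and Hist1h3f were read before it and fell with all 4 compounds.

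Of the 9 genes with several tested probes, 4 had one on each side. The first Hist2h2bb probe, which ends just after the stem, stood at -2.36, -2.28 and -2.59 with DEX, -1.42, -0.76 and -1.17 with FF, -1.26, -1.65 and -1.80 with VSG158, -1.22, -1.23 and -1.34 with VSG159, and -2.01, -2.05 and -2.06 with vehicle. It differed by -0.37 with DEX (adjusted p = 0.094) and was higher with FF (0.92), VSG158 (0.47) and VSG159 (0.77). The second probe stood at -2.80, -2.64 and -2.70 with DEX, -3.75, -3.82 and -3.26 with FF, -3.50, -3.13 and -3.73 with VSG158, -3.16, -4.01 and -3.45 with VSG159, and 0.03, -0.03 and 0.30 with vehicle. That probe fell (-2.81, -3.71, -3.55 and -3.64), so with FF, VSG158 and VSG159 the 2 probes named for the gene moved apart. Over all tested probes, 21.5%, 20.4%, 18.9% and 18.4% were higher and 25.6%, 22.7%, 26.7% and 26.5% lower.

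The 2 probes of Hist3h2a, an H2A gene outside the main clusters, did the same. The one before the stem-loop (chr11:58768387-58768446) stood at 3.41, 3.35 and 3.50 with DEX, 3.83, 3.94 and 3.80 with FF, 3.87, 3.80 and 3.53 with VSG158, 3.75, 3.86 and 3.97 with VSG159, and 2.89, 2.99 and 3.09 with vehicle. The one past it (chr11:58768954-58769013) stood at -0.46, -0.08 and -0.30 with DEX, -0.83, -0.59 and -0.65 with FF, -0.86, -0.70 and -0.83 with VSG158, -0.97, -1.03 and -0.86 with VSG159, and 1.36, 1.32 and 1.35 with vehicle. Vehicle was the lowest group on the probe before the stem-loop and the highest on the probe past it. The second probe fell (-1.62, -2.03, -2.14 and -2.30). In Hist1h1c the probe before the stem-loop (chr13:23831330-23831389) fell as well (-1.22, -1.07, -1.42 and -1.45), and in Hist1h4i (chr13:22133139-22133198) it fell (-1.27, -1.04, -1.20 and -0.88). Whether longer, polyadenylated transcripts contribute to any of these values was not tested.

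**Figure D3:**
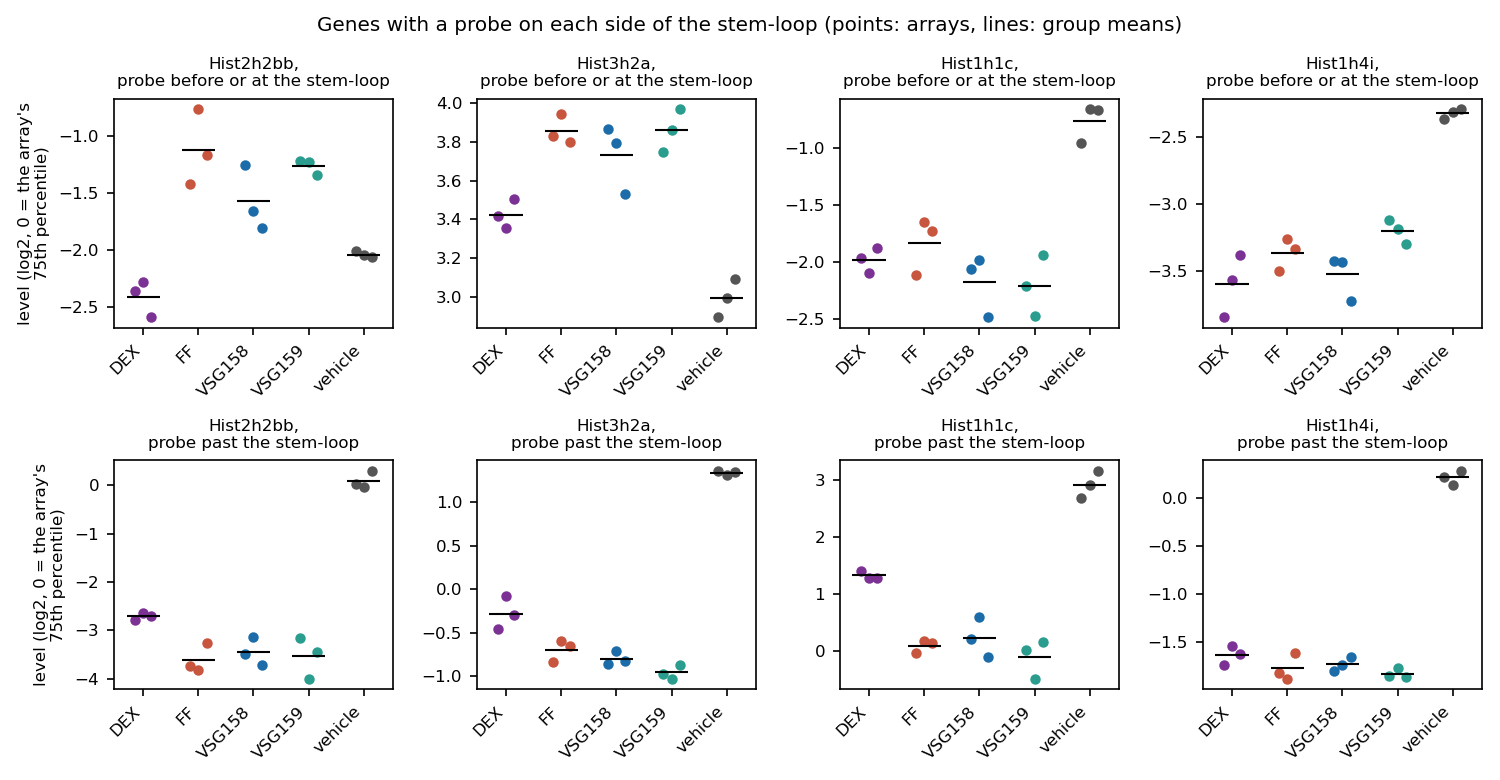
Levels (log2 signal, 0 at the array's 75th percentile) on each array for the 4 genes with 1 tested probe before or at the stem-loop and 1 past it. In Hist2h2bb and Hist3h2a the vehicle points of the probe past the stem-loop lie above those of all compounds, and the vehicle points of the Hist3h2a probe before it lie below them; in Hist1h1c and Hist1h4i both probes are highest with vehicle.

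In the main fit, at the same dose and time, FF, VSG158 and VSG159 each differed from DEX in some histone genes. No histone gene was called between these 3. All 6 pairs of compounds were compared. FF was higher than DEX in 13 genes and lower in 3, against 1.86% and 2.28% of all tested genes. VSG158 was higher in 6 and lower in 2 (1.06% and 0.933% of all genes), and VSG159 was higher in 11 and lower in 3 (1.44% and 4.11% of all). In either direction 16, 8 and 14 were called, against 4.14%, 1.99% and 5.55% of all. With p-values adjusted over all 6 pairs as well as over genes, 7 and 3, 5 and 2, and 7 and 3 were called. Over all tested genes, 344, 270 and 417 were called in either direction at that adjustment. The medians of the histone genes were 0.43, 0.32 and 0.23, beside -0.03, -0.07 and -0.08 over all genes, and the 3 comparisons share the DEX arrays.

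FF exceeded DEX by 1.32 in Hist1h1b (95% interval 1.01 to 1.64, limma adjusted p = 0.0023), and VSG158 and VSG159 did so by 1.47 and 1.46. In Hist1h2ab the differences from DEX were 1.48 for FF (1.12 to 1.85), 1.34 for VSG158 and 1.49 for VSG159. Hist2h4 was higher than with DEX by 0.78 with FF (0.44 to 1.13), 0.72 with VSG158 and 0.78 with VSG159. Downward, Hist1h1c differed from DEX by -1.23 with FF (-1.66 to -0.80, adjusted p = 0.0088), -1.09 with VSG158 and -1.43 with VSG159, and Hist2h2aa1 by -0.66, -0.60 and -0.78. No H3 gene was called against DEX. FF and DEX share a slide, and 10 histone genes were called between them within it, against 16 in the fit of all arrays. VSG159 has 1 array on that slide, and 1 gene was called there. VSG158 and DEX share no slide, so their comparison cannot tell compound from slide except through VSG159. The counts against DEX rest on the processing: with each array scaled to its median, 0, 0 and 2 genes were called. Leaving out single arrays gave 7 to 22, 4 to 11 and 7 to 17. With slide as a fixed block fewer genes were called between VSG158 and DEX, and with slide as a random block 0. With slide and position in the fit, 0 were called against DEX with any compound. Counts over all genes are not given here for these fits.

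**Figure D4:**
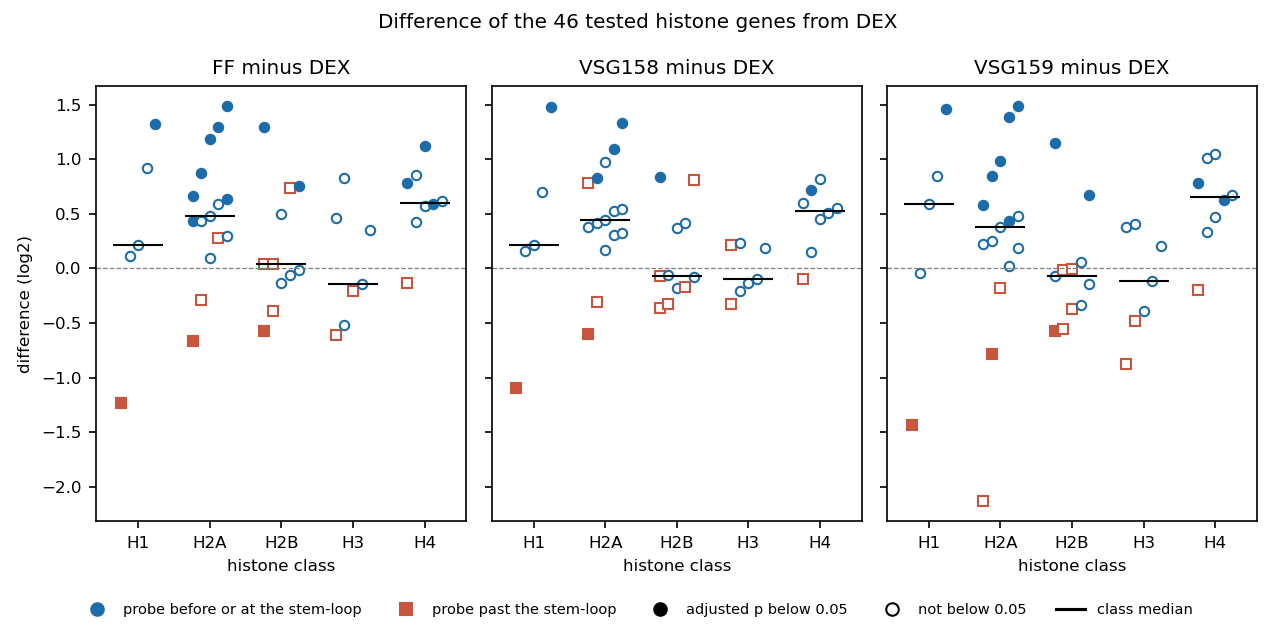
Difference from DEX (log2) of the 46 tested histone genes with FF, VSG158 and VSG159, by histone class. Filled points had an adjusted p below 0.05, circles are probes before or at the stem-loop, squares probes past it and lines class medians: filled circles lie above 0 and filled squares below it in all 3 panels.

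Between VSG158 and FF, VSG159 and FF, and VSG158 and VSG159, limma called 0 histone genes, as it called 0.00% of all genes. At an unadjusted p under 0.05 there were 1, 0 and 2 histone genes and 1229, 1176 and 1202 of all genes. The p-values adjusted over pairs called no histone gene, and 6, 12 and 5 of all genes. The medians of the histone genes were -0.08, -0.08 and 0.06. In Hist1h1b VSG158 minus FF was 0.15 (95% interval -0.17 to 0.46), VSG159 minus FF was 0.14 (-0.18 to 0.45) and VSG158 minus VSG159 was 0.01 (-0.30 to 0.33). In Hist1h2ab VSG158 minus FF was -0.15 (-0.51 to 0.21), and in Hist2h2aa1 it was 0.07 (-0.19 to 0.33). The interval reached 0.36 to either side of the difference in the median gene, so differences of that size were within what these arrays leave undecided.

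Other genes of histone supply and of S phase were read from lists. Of 26 S-phase genes, 22, 23, 22 and 23 were higher in the order of compounds above, and none was lower. The shares of all tested genes were 23.2%, 20.9%, 19.7% and 19.1% higher and 23.1%, 21.4%, 24.5% and 25.0% lower. The medians of the S-phase genes were 1.34, 1.95, 1.94 and 1.93. Tk1, thymidine kinase, was higher by 3.97, 4.74, 4.68 and 4.63, and Rrm2, a ribonucleotide reductase subunit, by 3.60, 4.44, 4.30 and 4.37. The helicase subunits Mcm6 (2.40, 3.04, 3.04 and 2.92) and Mcm2 (2.10, 2.78, 2.43 and 2.56) were higher too. Against DEX, 16 of the 26 were higher with FF, 10 with VSG158 and 14 with VSG159, beside 1.86%, 1.06% and 1.44% of all tested genes. The part of the S-phase genes in the histone values was not tested.

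Of 18 tested histone chaperones, 9 were higher and 1 lower with DEX, 13 and 2 with FF, 12 and 2 with VSG158, and 12 and 2 with VSG159, with medians of 0.54, 0.67, 0.64 and 0.53. The shares of all tested genes are those given beside the S-phase genes, 23.2%, 20.9%, 19.7% and 19.1% for higher calls. Asf1b, which hands H3 and H4 to new chromatin, stood at 2.82, 2.84 and 2.68 with DEX, 3.36, 3.58 and 3.57 with FF, 3.37, 3.55 and 3.46 with VSG158, 3.45, 3.72 and 3.26 with VSG159, and 0.39, 0.19 and 0.58 with vehicle. It was higher by 2.40, 3.11, 3.07 and 3.09. Chaf1b, a subunit of the assembly factor CAF-1, was higher by 1.43, 2.07, 2.09 and 2.02, and Nasp, which binds newly made H3 and H4, by 1.19, 1.61, 1.59 and 1.52. Daxx, the chaperone of the replacement histone H3.3, fell (-1.42, -1.57, -1.63 and -1.77).

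Of 17 tested genes of the machinery that makes and trims histone mRNA, 5 were higher and 3 lower with DEX, 5 and 3 with FF, 6 and 3 with VSG158, and 4 and 3 with VSG159, with medians of 0.06, 0.05, -0.03 and -0.09. Over all tested genes 23.2%, 20.9%, 19.7% and 19.1% were higher and 23.1%, 21.4%, 24.5% and 25.0% lower, so these counts differ from the background by a few genes at most. Ccne1, the cyclin whose kinase acts on NPAT, was higher by 1.19, 1.57, 1.45 and 1.55, and Cpsf3, the nuclease that makes the cut, by 0.85, 1.03, 0.82 and 0.90. The U7 proteins Lsm10 (-0.55, -0.68, -0.70 and -0.83) and Lsm11 (-0.78, -0.58, -0.76 and -0.81), with Zfp473 (-1.43, -1.24, -1.61 and -1.34), fell. Slbp differed by -0.25, -0.11, -0.20 and -0.44 and was called with none. Casp8ap2 was higher by 0.61, 0.43, 0.53 and 0.55, and Npat differed by 0.55, 0.40, 0.46 and 0.25, called with DEX and VSG158.

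Replication-independent histone genes mostly give mRNAs with poly(A) tails, many of them made throughout the cell cycle. Of the 11 tested, 2 were higher and 1 lower with DEX, and 4 and 2 with FF. With VSG158 4 were higher and 2 lower, and with VSG159 5 and 2. Of all tested genes 23.2%, 20.9%, 19.7% and 19.1% were higher and 23.1%, 21.4%, 24.5% and 25.0% lower. These counts too differ from that background by a few genes at most. The medians of the 11 genes were 0.01, 0.23, 0.15 and 0.30. H3f3b, which encodes H3.3, fell (-0.41, -0.78, -0.75 and -0.79). H2afz was higher by 0.39, 0.68, 0.68 and 0.59, and H2afx, whose mRNA is known in both forms, by 1.05, 1.05, 1.16 and 0.92. Cenpa, the H3 variant of centromeres, differed by 0.34 with DEX (adjusted p = 0.21) and was higher by 1.07, 0.79 and 0.88 with the other 3.

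**Figure D5:**
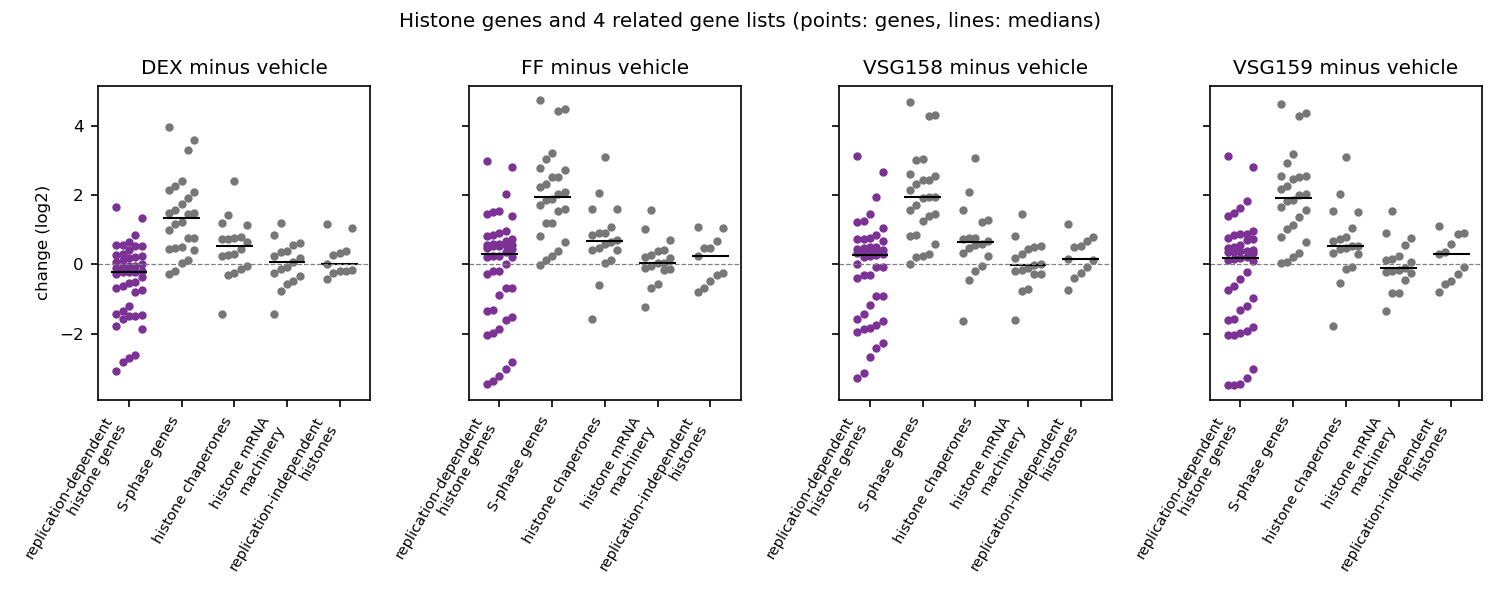
Difference from vehicle (log2) of the tested genes of 4 lists and of the 46 tested histone genes with each compound. Points are single genes and lines medians: the S-phase medians lie between 1.34 and 1.95, while the histone medians lie between -0.21 and 0.31.

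The 11 histone genes that were not tested stayed under the brightness filter in every group. They are Hist1h1t, Hist1h2ac, Hist1h2ad, Hist2h2ab, Hist1h2bp, Hist3h2ba, the pseudogene Hist3h2bb-ps, Hist1h3a, Hist1h3g, Hist1h4a and Hist1h4m.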

How the data were processed

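Total RNA of RAW264.7 cells was labelled with a one-colour (Cy3) oligo-dT kit and hybridised to Agilent mouse arrays, per the labels' protocols. The deposited scanner files hold spot intensities that the authors extracted with Agilent Feature Extraction 10.7.3.1 (protocol GE1_107_Sep09), background-subtracted and detrended within each array, on a design that names build mm9, per the file headers. The deposited value table holds log2 values for which the submitters' processing notes name limma; it served only as an alternative, since its values share nearly one distribution per array (medians 5.80 to 5.83) and its exact normalization is not given in the sources used here.

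From the intensities, 3671 control spots of 62976 were left out, outlier spots were set to missing and spots of a probe averaged. Each log2 processed signal was taken minus the array's 75th percentile (695 to 1223 in signal units), and between 39.6% and 50.4% of an array's noncontrol spots stood well above background. The number of arrays limits the precision. Probes well above background on 2 or more of a group's 3 arrays entered (28508), and each gene took its probe of highest mean. All 15 arrays were fitted in one model with group as the term (limma 3.58.1 in R 4.3.3, with the data.table package, version 1.17.8), and p-values were adjusted by Benjamini-Hochberg over all genes at 0.05. Of the table's values 1889 were missing, 2 of them in a histone gene.

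The genes given on every array were, in each histone class, up to 3 with the smallest p over the 5 groups and the one with the highest mean signal, 18 in all. Others are named where a count is 5 or fewer, and of each other list up to 4 genes by smallest p, plus Slbp, Npat and Casp8ap2. Lsm11, Hist1h2ag, Hist1h2ai, Hist3h2a, Hist1h2bq, Hist2h3c1 and the second probes were added after their values were seen. The members, the gene lists (histone mRNA machinery, chaperones, replication-independent histones, S phase, macrophage and other cell markers) and the rule were chosen with earlier results of these data known. Ccne2 and Asf1a of the lists were not tested, and 1 marker of other cells is not reported here. Symbols, promoters and gene lengths came from RefSeq (GRCm38.p6), used for names and sequences only, and probe positions are mm9 as in the files. Alternatives varied the scaling, background, filter, choice of probe, slide, position, replicate block and single arrays.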

Additional observations from a re-analysis of the deposited data

How the results depend on the processing

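Of 478 recomputed counts and medians, 433 moved by no more than 1.5-fold or than their spread, and of 1908 recomputed changes of single genes 1819 kept direction and side of the threshold, 69 lost the call, 8 gained one and 12 changed sign. The cause of these moves was not tested, except that one-slide and single-array fits hold fewer arrays.

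Medians of the histone genes against vehicle that moved by more than 1.5-fold were -0.43 (DEX) and 0.19 (FF) with slide as a fixed block, -0.09 (DEX) and 0.34 (VSG159) with slide and position, 0.12 (VSG158) with the mean of all tested probes, 0.31 and 0.29 (VSG159) with quantile normalization and the authors' value table, and -0.14 (DEX) without DEX replicate 2. The counts of histone genes that moved by more were as follows. Calls over all genes moved with the setting too: with median scaling they were 4926, 4716, 4994 and 4753 against vehicle. With each array scaled to its median, 3 were higher with DEX, 12 with FF and 9 with VSG158, and 0, 0 and 2 were called against DEX with FF, VSG158 and VSG159. With normexp background and quantile normalization, and likewise with the authors' value table, 3 were higher with DEX, and 5 and 8 were called with VSG158 and VSG159 against DEX. Without a filter on dim probes, 6, 4 and 8 were called against DEX. With slide as a fixed block, 3 were higher with DEX and 8 with FF, and 5 and 9 were called with VSG158 and VSG159 against DEX. With slide as a random block, 10 were higher with FF, and 0 and 8 were called with VSG158 and VSG159 against DEX. On one slide alone, 10 were called with FF and 1 with VSG159 against DEX. With slide and position as covariates, 0 were higher and 2 lower with DEX, 2 were higher with FF, 11 with VSG158 and 5 with VSG159, and 0 were called against DEX with each of the 3.

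Replicate numbers did not pair arrays: deviations of arrays with the same number correlated at -0.55 to 0.30 (median -0.01), and those with different numbers at -0.37 to 0.51 (median 0.00). With the replicate block, 9 were called between FF and DEX, and 21 of 23, 33 of 33, 31 of 32 and 29 of 29 calls against vehicle were still made with the same sign with DEX, FF, VSG158 and VSG159.

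Leaving out each array in turn gave 6 to 8 higher and 13 to 18 lower with DEX, 14 to 21 and 13 to 14 with FF, 13 to 20 and 13 to 15 with VSG158, and 12 to 17 and 13 to 17 with VSG159. Between FF and DEX 7 to 22 were called, with 7 without FF replicate 2 or 3 or DEX replicate 1 or 3, and 10 without FF replicate 1. Between VSG158 and DEX 4 to 11 were called, with 4 without VSG158 replicate 1 or DEX replicate 1 or 3, and 5 without VSG158 replicate 2. Between VSG159 and DEX 7 to 17 were called, with 7 without VSG159 replicate 2 and 8 without DEX replicate 1 or 3. Between FF, VSG158 and VSG159 0 were called in every setting run.

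No called change reversed with another array setting, while with the mean of all tested probes of a gene 1 call with DEX and 2 with each other compound turned to the opposite sign. Among the 18 genes chosen to be given on every array, signs that changed belonged to differences near 0. Hist1h2af with DEX (0.02) was -0.000144 with median scaling, -0.0623 with quantile normalization, -0.0387 with normexp, -0.0106 in the value table, -0.18 with the slide as fixed block, -0.0765 with it as random block, and -0.0192 to 0.0927 without single arrays. Hist2h4 with DEX (-0.04) was 0.15 with slide and position and -0.11 to 0.0248 without single arrays, and Hist1h2bn with FF (-0.19) was -0.41 to 0.0617 without single arrays. Genes near the arrays' background, such as Hist1h2bq and Hist2h3c1, have only bounds.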
